A study of Mus musculus with 16 samples.

Results

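The olfactory pit of the E10.5 mouse embryo was compared with the epidermal ectoderm of the E9.5 embryo, to ask how gene expression differs between surface ectoderm and the sensory placode that forms within it. E gives the embryonic day. Both regions were dissected from embryos of the CD1 strain, and total RNA from each was sequenced as 1 library, 2 of the 16 libraries of an atlas of the early face. No genetic change or treatment is given for either group, and the labels do not say how many embryos went into a library or from which part of the head the ectoderm was taken. With 1 library per group a difference has no replicate error and no p-value, and stage and tissue cannot be told apart.

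The olfactory placode is a thickened patch of head ectoderm that folds inward to become the olfactory pit, the source of the nasal sensory epithelium. Its cells stay epithelial while some of them take up proneural genes, which encode basic helix-loop-helix transcription factors that commit a cell to become a neuron, and Notch signalling between neighbours limits how many do so. Early neurons leave this epithelium as a migratory mass towards the forebrain, and the ectoderm outside the placode goes on to form epidermis, oral lining and nasal lining.

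The deposited value of a gene is a ratio to the median of that gene over the 16 libraries, so genes cannot be compared with each other by level. Each value was therefore set against the gene's own lowest one over the 16 libraries, and this multiple is called its level. In 8794 of 15876 genes the lowest value was shared by at least 2 libraries, and a library at such a value is called at the floor. A fold against the floor is a lower limit. Folds and log2 ratios are pit over ectoderm after removal of the median log2 shift of -0.14, taken over the 7082 genes whose lowest value is not shared, so that they are relative to the median gene. A gene at the floor in both libraries therefore shows a log2 ratio of 0.14. A gene was counted as higher or lower in the pit at 2-fold or more, provided that the library with more of it had a level of 5 or above. The labels state a read depth above 40000000 reads, and since no total per library was used here, counting intervals were not computed. For the E10.5 neural epithelium libraries labelled central and dorsal control the column headers name each other's region, and the labels are followed below.

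By this rule 582 genes were higher in the pit, 3.67% of all genes and 22.8% of the 2558 genes with a level of at least 5 in either library. The lower genes numbered 362, 2.28% of all genes and 14.2% of those at the level. Genes next to the bound had nearly equal folds: Ncaph2 counted as higher at 2.004-fold and Xrcc1 did not at 1.995-fold, and Nynrin counted as lower at 2.008-fold and Npc1 did not at 1.999-fold. Across 30 gene lists with 711 distinct measured genes, 75 were higher and 31 were lower. Each list count below is to be read beside the shares of all genes, 3.67% higher and 2.28% lower. For the list members at a level of at least 5, the shares to set beside are 22.8% and 14.2%.

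**Figure D1:**
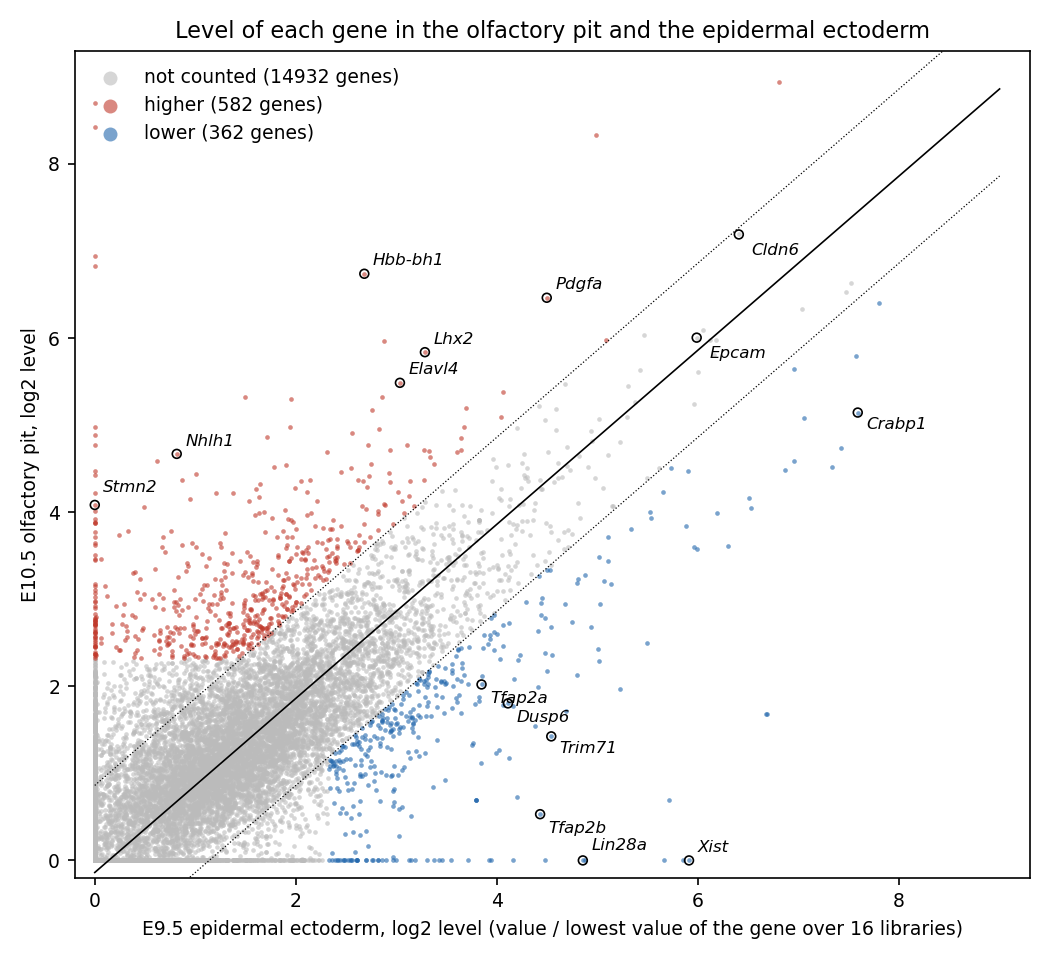
Each point is 1 of 15876 genes, with its log2 level in the ectoderm on the x axis and in the pit on the y axis. The solid line is the median gene and the dotted lines are 2-fold from it. Nhlh1 and Elavl4 lie above the upper dotted line with the higher genes in red, Lin28a and Tfap2b lie with the lower genes in blue, and Epcam and Cldn6 lie between the dotted lines.

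The pit library carried the markers of its label. Nhlh1, a helix-loop-helix factor of newly born neurons, had a level of 25.4 in the pit and 1.76 in the ectoderm, a 15.9-fold difference. Elavl4, a neuronal RNA-binding protein, had levels of 44.8 and 8.198 (6.02-fold). Hes6, a Notch pathway factor that favours neurogenesis, had levels of 10.4 and 2.15 (5.33-fold). These 3 markers were counted as higher, but the fourth was not. Cldn6, a claudin of embryonic epithelium, had levels of 146 in the pit and 84.8 in the ectoderm (1.90-fold). Its highest level in the 14 other libraries was 3.01, so Cldn6 stood out in both libraries rather than in the pit alone. The general epithelial markers were close to equal: the levels of Epcam, an epithelial adhesion molecule, were 64.2 and 63.4, and those of Cdh1, or E-cadherin, were 10.1 and 10.3. Krt8 had levels of 15.8 and 15.5, and Grhl2, a factor that maintains epithelial junctions, 20.5 and 19.8.

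Many placode factors were already high in the ectoderm library. Of 28 measured olfactory and preplacodal factors 4 were higher and 0 were lower (14.3% higher, against 3.67% of all genes). Most of the list, 21 of the 28, was at the level, so that 4 of 21 stand against 22.8% of all genes at the level. By that measure the list held no excess of higher genes. Its median log2 ratio was 0.20, against 0.14 over all genes. Eya1 and Eya2, transcriptional cofactors of the preplacodal region, had levels of 23.4 and 49.8 in the pit and of 17.2 and 42.9 in the ectoderm. Neither they nor Pax6 (27.0 and 25.9), Sox2 (28.2 and 30.7) or Dlx5 (49.0 and 63.9) reached 2-fold. The ectoderm library thus held these placode genes at levels near those of the pit. In bulk tissue, fewer cells of a type and less RNA per cell cannot be told apart.

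The 4 placode factors that were higher were Lhx2, Runx1, Emx2 and Six2. Lhx2, a LIM homeobox factor needed for olfactory neuron identity, had levels of 57.2 and 9.74 (6.46-fold). Runx1, a runt-domain factor that acts in sensory neuron precursors, had levels of 10.6 and 2.43 (4.82-fold), and all 14 other libraries were at its floor. The levels of Emx2, a homeobox factor of forebrain and olfactory epithelium, were 11.6 and 4.20 (3.03-fold). Six2 had levels of 31.5 and 12.8 (2.71-fold). Lhx2, Emx2 and Six2 were high elsewhere too, in the E8.5 library of non-floor plate neural epithelium (59.4), in the neural epithelium library labelled central (14.4) and in E9.5 cranial mesenchyme (44.3).

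Proneural genes and their partners were higher in the pit. Of 38 measured proneural and Notch genes 13 were higher (34.2%) and 1 was lower, with a median log2 ratio of 0.80. Neurog1, which commits olfactory progenitors to the neuronal lineage, had levels of 15.02 in the pit and 5.16 in the ectoderm (3.205-fold). Neurod1, a differentiation factor, had levels of 11.7 and 2.85 (4.51-fold). Both were thus above their lowest value in the ectoderm as well. Further along the same lineage, Insm1, a zinc finger factor of dividing neuronal progenitors, had levels of 6.94 and 2.01 (3.80-fold). Nhlh2, the close relative of Nhlh1, had levels of 6.96 and 1.01 (7.62-fold). Gadd45g, a growth-arrest gene, had a level of 7.89 and was at the floor in the ectoderm, so it was at least 8.69-fold higher.

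Inhibitors of helix-loop-helix factors were higher beside the activators. Id1, which binds such factors and blocks their contact with DNA, had a level of 11.4 in the pit and was at the floor in the ectoderm (at least 12.5-fold). Id2 had levels of 14.8 and 3.93 (4.13-fold) and Id3 of 26.3 and 9.65 (2.999-fold). Few members of the Notch pathway itself were counted. Hey1, a Notch target, had levels of 34.1 and 16.5 (2.28-fold). Mfng and Lfng, sugar transferases that tune Notch receptors, went opposite ways, Mfng with levels of 15.04 and 3.88 (4.27-fold higher) and Lfng with 1.603 and 6.22 (3.53-fold lower). The receptor Notch1 (11.1 and 10.3), the ligands Dll1 (3.996 and 6.20) and Jag1 (9.27 and 7.57) and the target Hes1 (13.1 and 13.2) were not counted.

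Promoters of the higher genes of the neurogenesis lists were searched for some forms of the E-box, the letters that helix-loop-helix factors bind, because these genes differed together. The sequences are RefSeq's for GRCm38.p6, a build other than the mm9 that the submitters' processing notes name, and cover the 250 bases before a gene's start. Of 38 such genes 27 (71.1%) had a window, 42 windows in all, of which several belong to the same gene. Since fewer than 80% had one, a comparison of shares is void, and the shares below only describe the windows at hand. CAGCTG, which reads the same on both strands, stood in 12 windows (28.6%) of 8 genes (Celf3, Elavl4, Gadd45g, Hes6, Id2, Ina, Isl1 and Thsd7b), against 11.8% of 12200 windows of measured genes and 11.0% of 535 windows of all higher genes. CAGATG, on either strand, stood in 10 windows (23.8%) against 9.76%. The 5 other motifs were searched on both strands. TGGGAA, read in sites of the Notch effector RBPJ, was in 21.4% of the windows against 20.1%, and GCCNNNGGC, read in AP-2 sites, in 19.05% against 20.8%. CACGTG, a further form of the E-box, was in 2.38% against 8.11%. AACCNGTT, read in grainyhead-like sites, was in 0 of the 42 windows and in 1.54%, and ACAATG, read in Sox sites, in 11.9% and 6.35%. CAGCTG and CAGATG were searched as separate letters and can stand in 1 window together. Shown here are the windows of both Nhlh genes and 1 of those of Hes6. Capitals mark CAGATG in Nhlh1 and Nhlh2 and CAGCTG in Hes6, and other forms of the E-box are not marked.
Nhlh1, chr1:172057597-172057846, minus strand: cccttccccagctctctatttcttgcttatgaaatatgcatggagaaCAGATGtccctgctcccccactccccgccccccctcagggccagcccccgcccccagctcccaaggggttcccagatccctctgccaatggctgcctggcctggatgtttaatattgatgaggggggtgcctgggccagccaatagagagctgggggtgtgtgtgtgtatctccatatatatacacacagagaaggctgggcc
Nhlh2, chr3:102009895-102010144, plus strand: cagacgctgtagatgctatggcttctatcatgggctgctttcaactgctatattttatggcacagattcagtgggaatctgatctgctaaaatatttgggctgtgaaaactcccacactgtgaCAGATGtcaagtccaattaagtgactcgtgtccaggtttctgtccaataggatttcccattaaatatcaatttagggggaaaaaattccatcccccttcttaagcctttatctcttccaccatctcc
Hes6, chr1:91413223-91413472, minus strand: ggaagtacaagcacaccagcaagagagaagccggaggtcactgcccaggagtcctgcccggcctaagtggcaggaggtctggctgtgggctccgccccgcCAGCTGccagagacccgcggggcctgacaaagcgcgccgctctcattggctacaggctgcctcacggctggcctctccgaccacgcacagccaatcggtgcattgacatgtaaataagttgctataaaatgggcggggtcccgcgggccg
A match says only that these letters are in the window.

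Genes of young neurons made up the list with the largest share of higher members among those for the olfactory lineage. Of 46 measured early neuron genes 18 were higher (39.1%) and 0 were lower, with a median log2 ratio of 1.30. With the level raised to at least 10, 10 of them were counted, and Dcx, Ncam1, Celf3 and Map1b no longer were. Stmn2, a microtubule regulator of growing axons, had a level of 16.9 in the pit and was at the floor in the ectoderm, so it was at least 18.7-fold higher. Rtn1, a reticulon of neuronal membranes, had levels of 31.5 and 3.84 (9.02-fold). Ina, a neuronal intermediate filament, had a level of 11.0 against the floor (at least 12.1-fold). Among tubulins, Tubb3, the usual histological label of neurons, had levels of 27.4 and 8.63 (3.50-fold) and Tubb2b of 30.1 and 5.90 (5.61-fold). Dcx, a microtubule protein of migrating neurons, had levels of 5.54 and 1.64 (3.71-fold), and Ncam1, a neural adhesion molecule, of 5.88 and 1.05 (6.18-fold). Gng3, a neuronal G protein subunit, had levels of 19.4 and 3.98 (5.37-fold). Tubulin paralogs are near-identical in sequence, and how reads were split among them in the deposited values is not stated.

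The ectoderm was at the floor for 21 of the 46 early neuron genes and the pit for 5. Mapt (2.16), Nefl (2.24), Nefm (2.38) and Snap25 (3.17), genes of the neuronal cytoskeleton and of vesicle release, had levels above the floor in the pit alone, under the level of 5 that the rule asks for. Rbfox3, a label of mature neurons, was at the floor in both. Of 38 synapse, channel and receptor genes 1 was higher, Syp, a synaptic vesicle protein (5.65 and 1.05), and 1 was lower, the calcium channel gene Cacna1b (1.74 and 7.82). Of 49 axon guidance genes 2 were higher (Sema6a and Efna2) and 2 were lower (Slit3 and Epha4). These shares, 2.63% and 4.08% in each direction, stand against 3.67% higher and 2.28% lower of all genes.

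**Figure D2:**
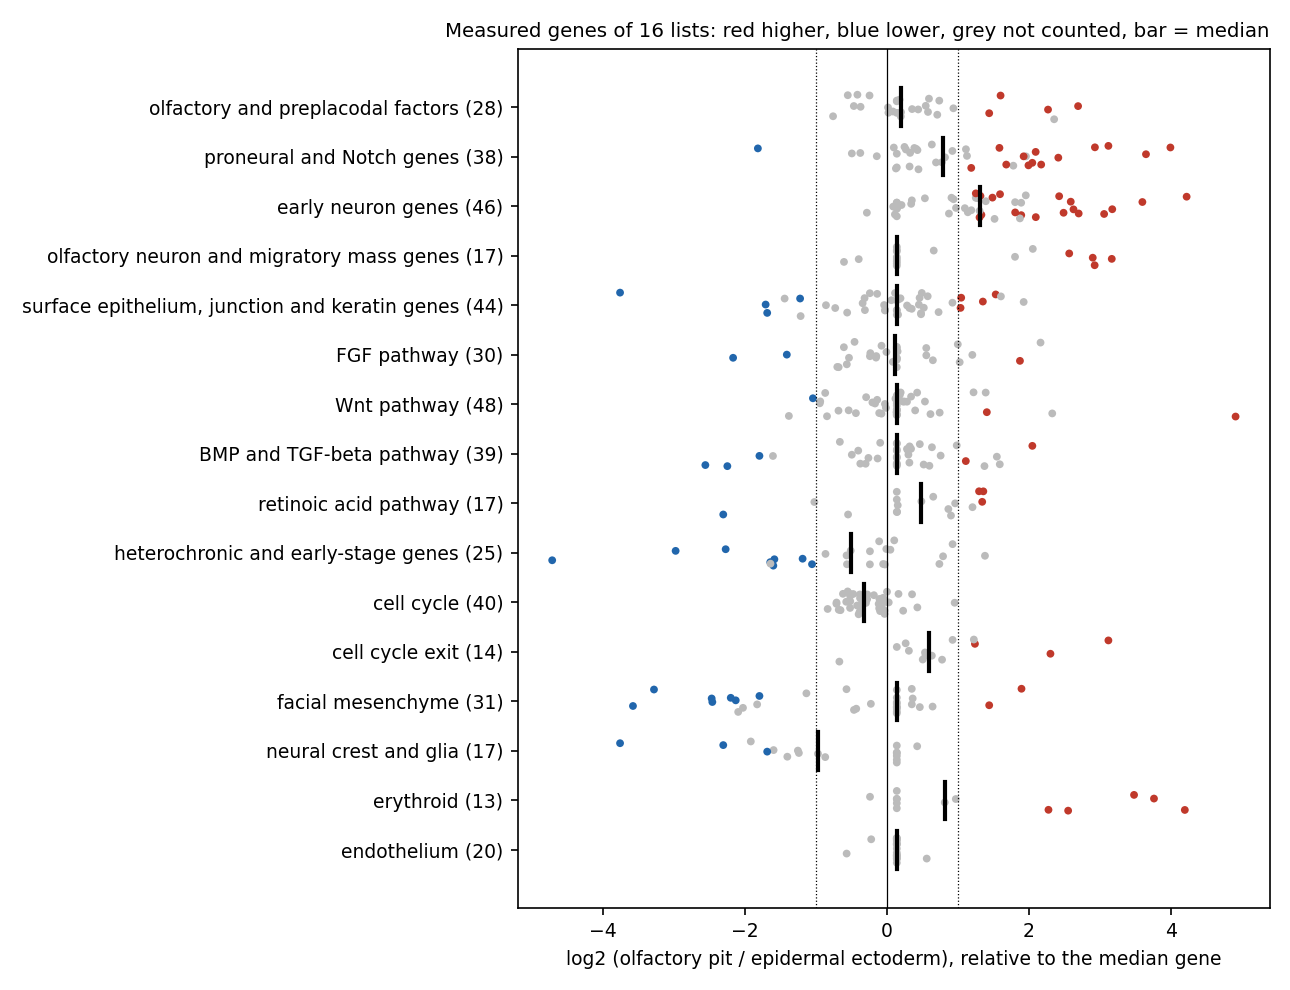
Each point is 1 measured gene of a list, placed by its log2 ratio of pit over ectoderm relative to the median gene, and the black bar is the median of the list. The early neuron list has its bar at 1.30 and its red points to the right, and the heterochronic and early-stage list has its bar at -0.51. Grey points beyond the dotted 2-fold lines had a level under 5 in both libraries.

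Of 17 measured genes of olfactory neurons and the migratory mass, with 5 at the level, 4 were higher (23.5%) and 0 were lower. They included 3 Ebf genes, which encode helix-loop-helix factors of differentiating neurons. Ebf1 had levels of 9.40 and 1.36 (7.60-fold), Ebf2 of 13.1 and 1.605 (8.98-fold), and Ebf3 of 12.4 and 1.82 (7.46-fold). The Ebf genes were not particular to the pit, since Ebf1 reached 18.8 and Ebf2 9.98 in the E9.5 maxillary arch and Ebf3 22.1 in the E9.5 mandibular arch. Isl1, a LIM homeobox factor of several neuron types, had levels of 7.997 and 1.49 (5.93-fold). Cxcr4, a chemokine receptor of migrating cells, was at 12.9 and 8.98, and of the odour transduction genes Gnal was at the floor and Adcy3 at 1.13 in the pit.

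The surface epithelium list was split. Of 44 measured genes, with 27 at the level, 4 were higher and 4 were lower (9.09% each). The summed levels were 531 in the pit and 503 in the ectoderm. The lower ones were transcription factors and a claudin. Tfap2b, an AP-2 factor of ectoderm and neural crest, had levels of 1.45 in the pit and 21.6 in the ectoderm, and was 13.5-fold lower. Its relative Tfap2a had levels of 4.06 and 14.4 (3.22-fold lower). Grhl3, a grainyhead-like factor of epidermal barrier formation, had levels of 1.83 and 6.58 (3.27-fold lower), and Cldn4 of 4.57 and 11.8 (2.34-fold lower). The highest levels of Tfap2a and Tfap2b in the 14 other libraries were in E9.5 cranial mesenchyme (16.7 and 27.0), a tissue that holds neural crest cells.

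The higher epithelial genes were a transcription factor, claudins and a protease inhibitor. Trp63, the factor that defines stratifying epithelia and basal cells, had levels of 7.42 and 3.20 (2.55-fold), and all 14 other libraries were at its floor. Cldn7, a claudin, had levels of 14.3 and 5.45 (2.89-fold). Cldn3 (2.06-fold) and Spint2, a protease inhibitor (2.05-fold), were just past the bound and were not counted in the values as deposited. Outside that list, Itgb6, an epithelial integrin subunit, was at 5.09 in the pit and Egfr, the receptor of epidermal growth factor, at 6.33, with the ectoderm at the floor for both (at least 5.61-fold and 6.96-fold).

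In fibroblast growth factor signalling, a pair of target genes was lower in the pit and a ligand was higher. Of 30 measured genes of that pathway 1 was higher and 2 were lower. Dusp6, a phosphatase induced by the pathway, had levels of 3.49 and 17.3 (4.49-fold lower), and Etv4, a transcription factor it induces, of 2.14 and 6.26 (2.66-fold lower). Between E9.5 and E10.5 Dusp6 was also lower in the mandibular (2.78-fold) and the maxillary arch (2.21-fold), relative to the median gene of each arch. Etv4 was already near its lowest value in both arches at E9.5 (1.12 and 1.32), so a 2-fold fall could not be seen there. Other targets did not reach the bound, among them Etv5 (9.36 and 16.5), Spry1 (5.30 and 6.86), Spry2 (4.28 and 5.24) and Spry4 (2.83 and 4.74). Among ligands, Fgf9 had levels of 7.73 and 2.32 (3.66-fold higher), and Fgf8 of 3.20 and 4.84. The counts are 3.33% higher and 6.67% lower of the list, beside 3.67% and 2.28% of all genes. At the level they are 1 and 2 of 11 genes, beside 22.8% and 14.2% of all genes at the level.

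In the Wnt pathway the counts were near the background. Of 48 genes 2 were higher (4.17%, against 3.67% of all genes) and 1 was lower (2.08%, against 2.28%). The lower one was Axin2, a feedback inhibitor and common Wnt readout, with levels of 5.39 and 12.2 (2.06-fold lower). Rnf43, which removes Wnt receptors, had levels of 5.57 and 2.31 (2.65-fold higher). Tcf7l1, a repressor of Wnt targets, was at 27.3 in the pit and at its lowest in the ectoderm (30.1-fold), where the 14 other libraries were between 14.01 and 85.9. That value rests on the single low library. Of 39 genes of BMP and TGF-beta signalling, Tgfb2 (13.8 and 3.67) and Bmp4 (12.2 and 6.20) were higher, and the ligand Bmp2, the antagonist Chrdl1 and the target Msx2 were lower. That is 5.13% and 7.69% of a list with 11 genes at the level. Bmp2 had a level of 5.23 and Chrdl1 of 6.48 in the ectoderm with the pit at the floor, and Msx2 had 2.39 and 9.13. Bmp4 was not counted in the values as deposited. Of 12 Hedgehog genes, with 4 at the level, none was counted in either direction.

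In retinoic acid signalling 3 of 17 genes were higher (17.6%) and 1 was lower (5.88%), with 7 at the level. Stra6, which takes up retinol into cells, had levels of 12.7 and 5.69 (2.46-fold). The binding protein gene Crabp2 (17.1 and 7.35) was also higher, and Crabp1 had levels of 35.4 and 193 (4.95-fold lower). Between E9.5 and E10.5 Crabp1 was lower in the mandibular (6.32-fold) and the maxillary arch (2.19-fold) too, relative to the median gene of each arch. Aldh1a3, an enzyme that makes retinoic acid in nasal ectoderm, was at 31.2 and 18.4, not a 2-fold difference. Among 19 genes of PDGF, EGF and VEGF signalling, with 10 at the level, 3 were higher (15.8%) and 0 lower. The higher ones were Egfr, the ligand Nrg1 (8.89 against the floor, at least 9.78-fold), and the ligand Pdgfa (88.2 and 22.6, 4.30-fold). The highest level of Pdgfa in the 14 other libraries was 13.9, in E8.5 floor plate, below both. Its receptor Pdgfra was at the floor in the pit and at 1.49 in the ectoderm.

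**Figure D3:**
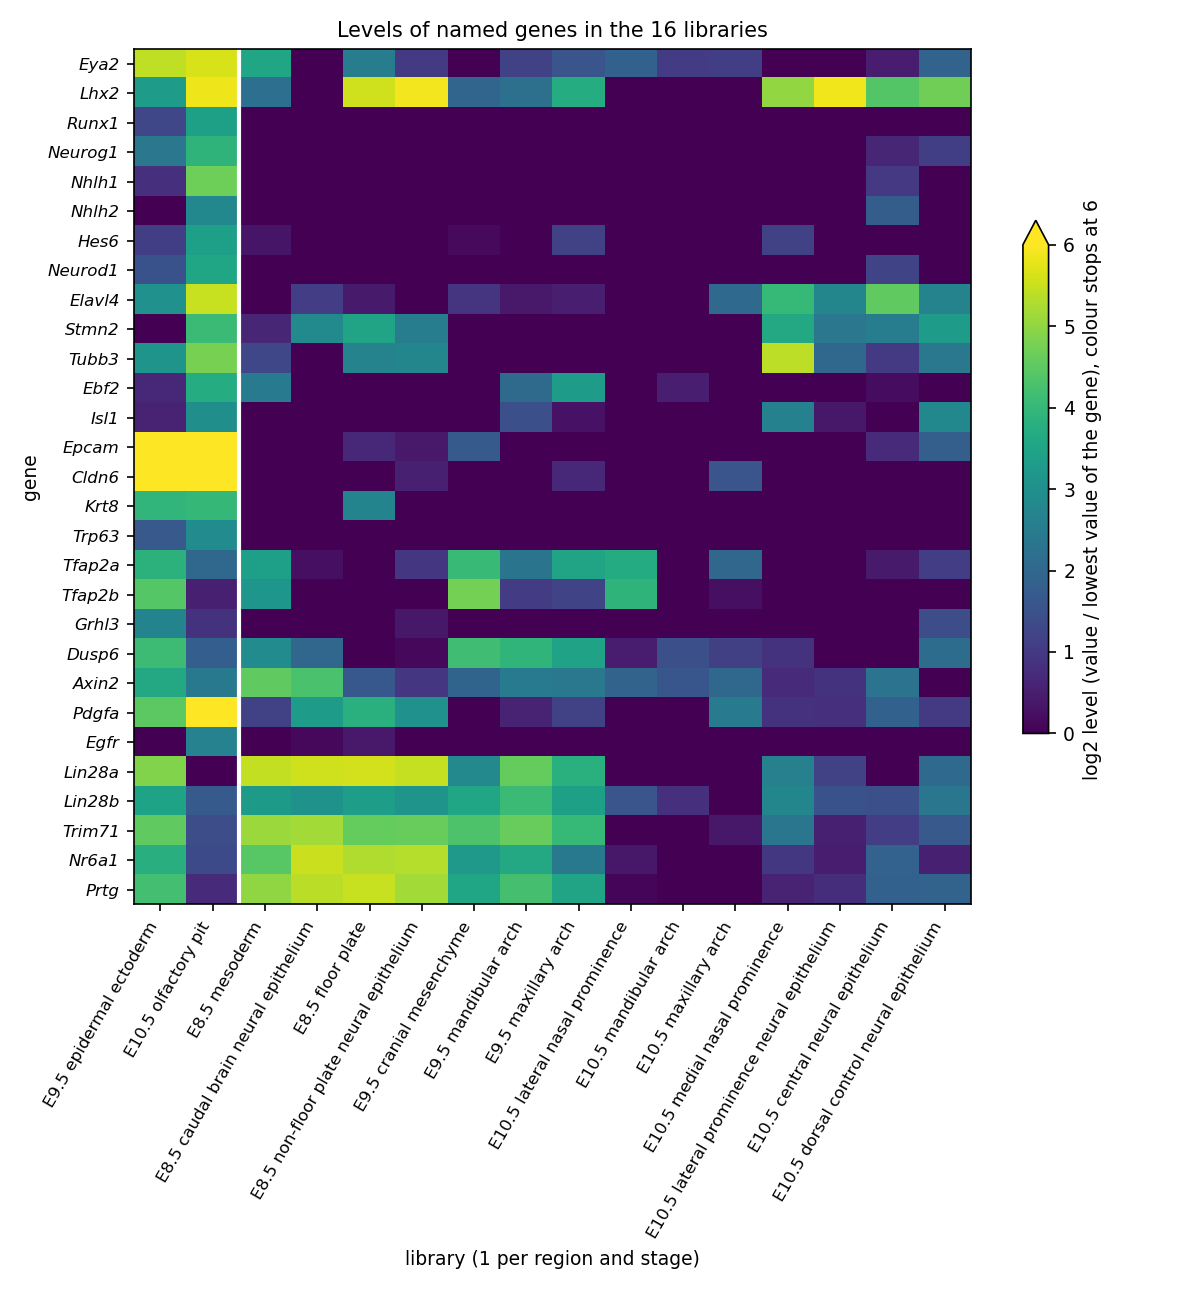
Colour gives the log2 level of each gene (rows) in each of the 16 libraries (columns), with the ectoderm and the pit to the left of the white line. Epcam and Cldn6 are bright in these 2 libraries, Nhlh1 is bright in the pit, and the 5 early-stage genes in the lowest rows are bright in the E8.5 and E9.5 libraries.

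The largest group of lower genes among the lists were heterochronic and early-stage genes. Heterochronic genes time development and decline as embryonic cells mature, and the list also holds other genes of early stages. Of 25 measured genes 8 were lower (32%) and 0 were higher, with a median log2 ratio of -0.51, and 5 were lower at a level of at least 10. Lin28a, an RNA-binding protein that blocks maturation of let-7 microRNAs, was at the floor in the pit and at 28.9 in the ectoderm, so it was at least 26.3-fold lower. Its paralog Lin28b had levels of 3.24 and 11.1 (3.13-fold lower). Trim71, a let-7 target that acts in the same circuit, had levels of 2.68 and 23.3 (7.88-fold lower). Nr6a1, an orphan nuclear receptor of early embryos, had levels of 2.55 and 13.5 (4.83-fold lower). The imprinted genes H19 (7.72 and 25.5) and Mest (1.76 and 5.88), the DNA demethylase gene Tet1 (2.21 and 5.55) and Mycn (3.30 and 7.56) were also lower. Prtg, a membrane protein of early embryos named among the largest differences, had levels of 1.65 and 18.4 (10.1-fold lower).

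Lin28a also separated the 3 stages in the libraries that the comparison did not use, and Trim71 separated E10.5 from the earlier ones. The E8.5 levels of Lin28a were 44.0, 47.1, 48.4 and 44.7. In the other E9.5 libraries it was at 7.05 in cranial mesenchyme, 23.8 in the mandibular arch and 13.99 in the maxillary arch. In the other E10.5 libraries it ranged from the floor to 6.13, so the stages did not overlap. Trim71 overlapped between E8.5 (23.9 to 36.0) and E9.5 (up to 24.2 in the mandibular arch). It was between 16.2 and 36.0 in the E8.5 and other E9.5 libraries and between the floor and 5.11 in the other E10.5 ones. Between E9.5 and E10.5 Lin28a was at least 12.0-fold lower in the mandibular arch and at least 6.26-fold lower in the maxillary arch, relative to the median gene of each arch. Lin28b (4.90-fold and 4.79-fold), Trim71 (at least 12.2-fold, and 5.53-fold), Nr6a1 (at least 6.19-fold and 2.41-fold) and Prtg (9.43-fold and 5.09-fold) were lower in both arches too. In contrast, H19, Mycn, Tet1 and Mest were not 2-fold lower in both.

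**Figure D4:**
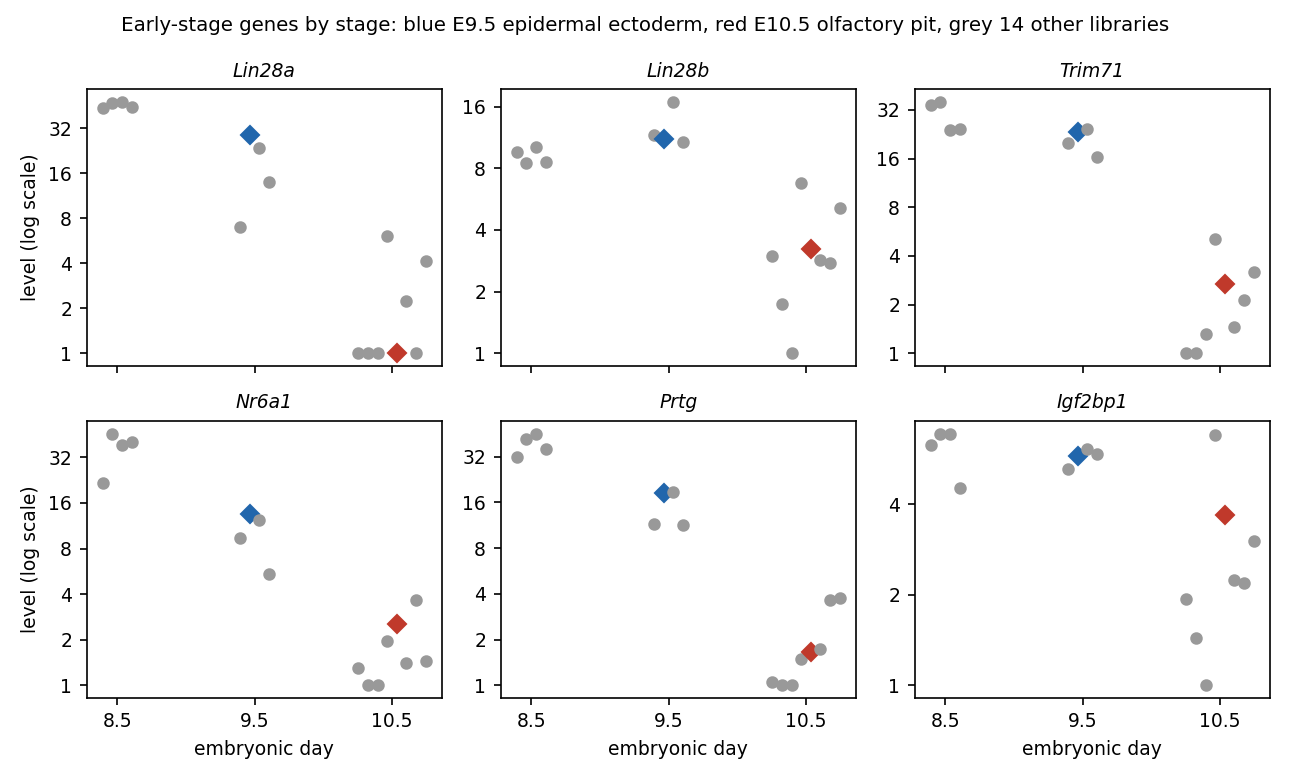
Each panel gives the level of 1 gene on a log scale against embryonic day, with 1 point per library, spread sideways within a stage so that points can be seen. Lin28a, Trim71, Nr6a1 and Prtg in the pit (red) lie among the other E10.5 libraries and below the ectoderm (blue), which is the highest E9.5 library for Lin28a and Nr6a1 and lies among the other E9.5 libraries for Trim71 and Prtg. Igf2bp1 was not counted in the comparison.

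Beyond the named genes, 136 of the 362 lower genes (37.6%) were 2-fold or more lower at E10.5 in both arches, against 20.6% of the genes at the level of 5. The lower genes include 31 histone cluster genes, taken up below, which were not set apart here. The median level of that group was 19.3 at E9.5 and 1 at E10.5 in the mandibular arch, and 13.3 and 1.39 in the maxillary arch. In the E10.5 library labelled medial nasal prominence it was 21.7. Of the 582 higher genes 41 (7.04%) were higher at E10.5 in both arches, against 3.60%. The arch libraries are 4 of the 14 that the comparison did not use. The neurogenesis genes Nhlh1 and Stmn2 were at the floor in both arches at E10.5.

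The letters of the let-7 site were looked up in the 3′ untranslated regions because Lin28 and let-7 act on each other. This search was chosen after the values were seen. The table used here holds 11 mature sequences with the let-7 seed GAGGUAG at bases 2 to 8, from RefSeq with build GRCm38.p6. Shown are 3 of them, with the seed in capitals.
mmu-let-7a-5p: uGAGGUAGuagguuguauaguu
mmu-let-7d-5p: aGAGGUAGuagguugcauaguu
mmu-let-7g-5p: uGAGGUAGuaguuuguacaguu
For the microRNA genes themselves, the rows for Mirlet7d, Mirlet7g and mmu-let-7f-1 were at or within 1.17 times their lowest value in every library. Mature let-7 was not measured here, so these rows do not show whether its amount differed.

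The site CTACCTCA pairs with the seed and adds an A after it. It was searched on the transcript strand in the longest 3′ untranslated region of each gene in GENCODE M21 (GRCm38). Of protein-coding genes, 210 of 213 lower and 527 of 529 higher ones had such a region, while of all 362 lower genes 58.0% had one. The site stood in 13 of 210 lower genes (6.19%), in 10 of 527 higher genes (1.90%), in 76 of 2219 genes at the level (3.42%) and in 456 of 12100 of all genes (3.77%). Lin28a, Lin28b, Trim71, Nr6a1, Prtg and Slc2a3 are among the 13, and their lower levels were known when the search was chosen. The share of lower genes is thus made up in part of genes already seen to be lower, and is a description only. The regions differ in length, with medians of 1139.5 bases in lower, 435 in higher and 955 in genes at the level, and a longer region holds more chance matches. Lin28a had 2 sites, Lin28b 1, Trim71 4, Nr6a1 3, Prtg 1 and Slc2a3 1. Hmga2 with 1 site (levels 2.05 and 2.43) and Igf2bp1 with 3 sites (3.69 and 5.79) were not counted as lower. Sites of the genes with the largest stage differences are shown with 10 bases on each side. Coordinates are those of the capitals, in GRCm38.
Lin28a, chr4:134005189-134005196, minus strand: gcctgttgaaCTACCTCAtttttgccga
Lin28a, chr4:134004551-134004558, minus strand: cgccacaaacCTACCTCActgtgttgaa
Lin28b, chr10:45381022-45381029, minus strand: ggcgggaagtCTACCTCAtgcaagcaca
Trim71, chr9:114512472-114512479, minus strand: tgcctaagtcCTACCTCAgcttaaattt
Trim71, chr9:114512376-114512383, minus strand: taatttctatCTACCTCAactctttgca
Nr6a1, chr2:38727449-38727456, minus strand: acaaagacaaCTACCTCAatggaaacag
Prtg, chr9:72912573-72912580, plus strand: tgctgaatagCTACCTCAgtttgctgtg
The sites lie in exonic sequence after the stop codon, the first Lin28b site starting at base 36 of the region and the first Lin28a site at base 909. Pairing letters in a transcript are a description and were not tied to the lower levels by any measurement here.

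Cell cycle genes were not counted in either direction, 0 of 40, but only 10 of them were at the level. Their median log2 ratio was -0.33, against 0.14 over all genes, and 7 of the 40 had a ratio above 0. Cdk1, the mitotic kinase, was at 3.39 in the pit and 5.34 in the ectoderm, and Ccnd1, a cyclin, at 5.51 and 6.21. Among genes of cell cycle exit 3 of 14 were higher (21.4%), with 6 at the level. Cdkn1a, which encodes the inhibitor p21, had levels of 15.3 and 3.40 (4.93-fold). Rb1, the retinoblastoma gene, had levels of 5.02 and 2.34 (2.36-fold), and Gadd45g is given above.

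Housekeeping genes differed in blocks, and these groups were formed from gene symbols after their values were seen. Cytosolic ribosomal protein genes, which share near-identical copies, were higher in 57 of 83 and lower in 0, with a median log2 ratio of 1.54. Nuclear genes of the respiratory chain were higher in 41 of 88 and lower in 0 (median 1.27). Mitochondrial ribosomal protein genes were higher in 20 of 78 (median 0.57). Proteasome genes were higher in 7 of 47 and lower in 0 (median 0.27). Genes of the mitochondrial genome went the other way, lower in 6 of 30 and higher in 0 (median -0.41). Histone cluster genes were lower in 31 of 61 and higher in 1 (median -1.05). Of all genes 3.67% were higher and 2.28% lower, and of those at the level 22.8% and 14.2%. With the values as deposited, 54 cytosolic ribosomal, 37 respiratory chain, 17 mitochondrial ribosomal and 7 proteasome genes were higher, and 7 mitochondrial genome genes and 40 histone genes lower. With the shift taken within classes of transcript length the same counts were 49, 36, 14 and 6 higher, and 8 and 45 lower, and the proteasome median was -0.01.

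These blocks also moved between libraries of 1 stage. The median level of ribosomal protein genes was 7.43 in the pit and 2.43 in the ectoderm, but also 2.80 in the E9.5 mandibular arch against 7.90 in the E9.5 maxillary arch, and 4.12 in the E10.5 mandibular arch but 1.04 in the E10.5 maxillary arch. The ectoderm thus lay with the E9.5 mandibular arch and below the other 2 E9.5 libraries. Higher genes had a median longest transcript of 1797.5 bases, lower genes of 2309 and genes at the level of 2678. In the shortest of 10 length classes the median log2 ratio as deposited was 0.33, and in the other 9 classes it lay between -0.20 and -0.00. The part of transcript length or of the library in these blocks was not tested.

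**Figure D5:**
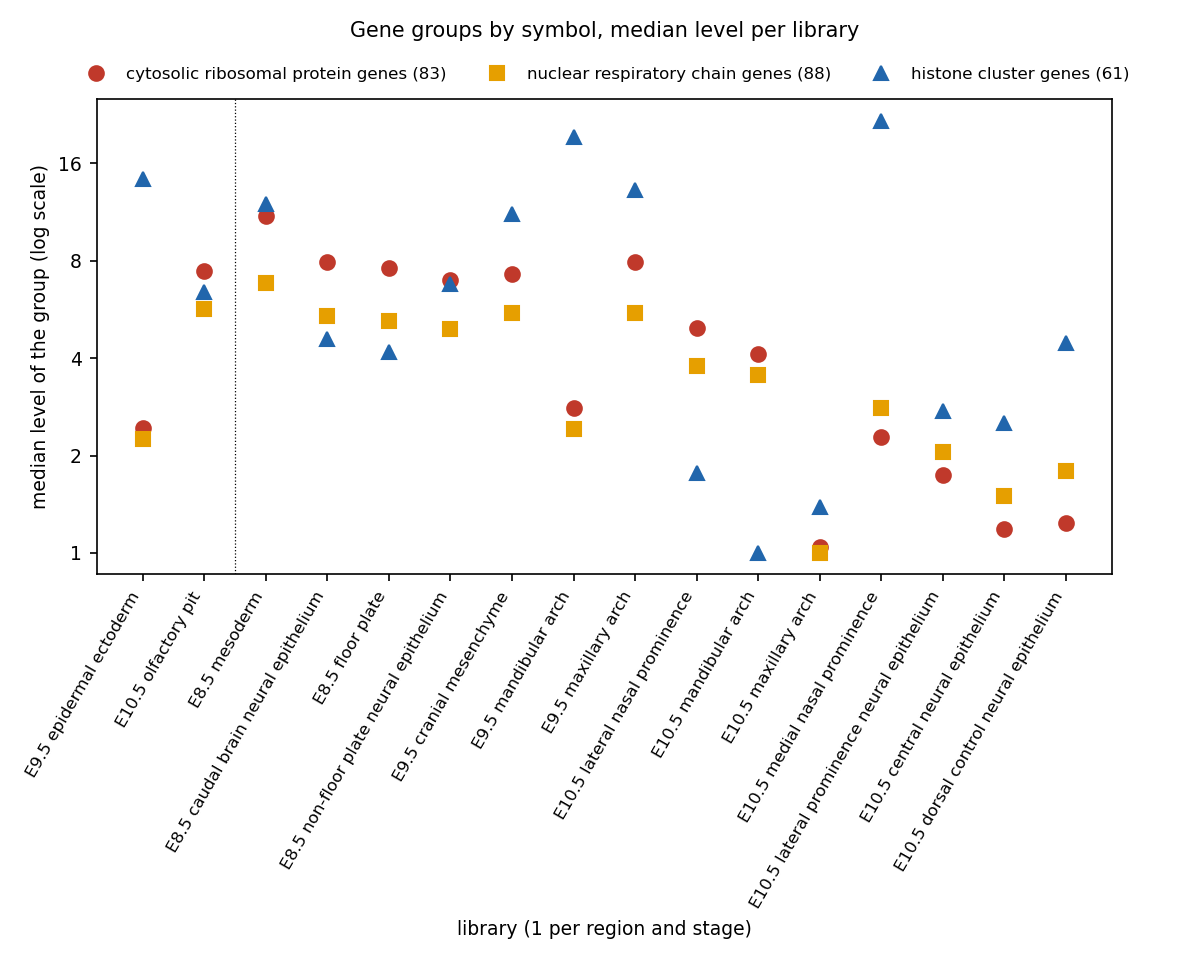
Points give the median level, on a log scale, of 83 cytosolic ribosomal protein genes (red), 88 nuclear respiratory chain genes (orange) and 61 histone cluster genes (blue) in each library. Ribosomal and respiratory chain genes are low in the ectoderm and in the E9.5 mandibular arch and higher in the pit, and histone genes run from their lowest value in the E10.5 mandibular arch to 21.7 in the library labelled medial nasal prominence.

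The 15 largest differences in each direction held few neural or epithelial genes. The higher ones were Ttc3, Lars2, Csnk1e, Vcan, Tcf7l1, Atp5k, Ndufa2, Stmn2, Hbb-bh1, Arhgap21, Naa10, Pigp, Nfia, Nhlh1 and Zc3h7a. Several were at the floor in a few libraries and high in the rest. Ttc3, a ubiquitin ligase gene, was at 123 in the pit and at the floor in the ectoderm, but also at the floor in E8.5 floor plate, in the library labelled medial nasal prominence and in lateral prominence neural epithelium, and between 59.2 and 141 in the others. Csnk1e, a casein kinase, was at 31.6 and at the floor in the ectoderm and in E9.5 cranial mesenchyme. Lars2, a mitochondrial leucyl-tRNA synthetase, was at 113 in the pit and at the floor in the ectoderm, in E8.5 mesoderm and in both arches at E9.5, and between 21.7 and 281 in the others, which include all those of E10.5. Lars2 (at least 43.0-fold and 113-fold), Arhgap21 (at least 15.97-fold and 14.8-fold) and Zc3h7a (at least 12.3-fold and 19.997-fold) were also higher at E10.5 in the mandibular and the maxillary arch. Nfia, a nuclear factor of neural and mesenchymal differentiation, was graded instead, at 14.6 in the pit, at the floor in the ectoderm (at least 16.1-fold) and at no more than 3.01 in each of the other E8.5 and E9.5 libraries.

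The 15 largest lower differences were Xist, Cops2, Tardbp, Slc2a3, Dlg1, Lin28a, Eif6, Nup188, Lrrc8a, Tfap2b, Postn, mt-Tt, Prtg, Lum and Suv420h2. For Cops2, Dlg1 and Lrrc8a the pit was 5-fold or more below each of the other 15 libraries, so these values rest on the pit library alone. Cops2, a subunit of the COP9 signalosome, had a level of 57.7 in the ectoderm and at least 25.8 in each of the 14 others. Slc2a3, a glucose transporter, had levels of 1.61 and 52.2 (29.4-fold lower), with 60.8 in E8.5 floor plate and 3.22 or less in all 3 other E9.5 and all 7 other E10.5 libraries.

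Sex-linked genes differed as well. Xist, the RNA that silences an X chromosome in female cells, was at its lowest in the pit and at 60.2 in the ectoderm (54.7-fold lower), and no other library was under 4.66. The Y-linked genes Eif2s3y (17.7 and 1.93) and Uty (8.203 and 1.08) were higher in the pit. The sex of the embryos is not in the labels, and which other differences move with it was not tested.

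Markers of other cell types moved with the comparison in part. The shares of their lists stand beside 3.67% higher and 2.28% lower of all genes, and 22.8% and 14.2% at the level. Of 13 erythroid genes 5, all globins, were higher (38.5%), with 5 at the level. They include Hbb-bh1 (107 and 6.41, 18.3-fold) and Hbb-y (322 and 31.8, 11.2-fold), genes with close copies whose reads may have been split between them. The summed level of that list was 983 in the pit and 170 in the ectoderm, with Alas2 at 3.31 and 4.30 and Gata1 at the floor in both. Endothelium genes, with 0 at the level, could not be counted and gave 0 of 20 in either direction. Of these, 19 were at the floor in the pit and 18 in the ectoderm, and Pecam1, Cdh5 and Kdr were at the floor in both. Of 31 facial mesenchyme genes, with 12 at the level, 7 were lower (22.6%, among them Col1a1, Col1a2, Lum, Postn, Prrx1 and Msx2). In the same list 2 were higher (6.45%, Six2 and Vim), and the summed levels were 105 and 137. The pit was at the floor for 17 of the 31 and the ectoderm for 10. Twist1, a defining factor of this mesenchyme, was at the floor in the pit and at 4.71 in the ectoderm. The part of blood or mesenchyme RNA in the other differences was not tested.

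Neural crest and glia genes were lower in 3 of 17 (17.6%, Crabp1, Tfap2a and Tfap2b) and higher in 0, with 5 at the level. Crabp1 was also 2-fold or more lower at E10.5 in both arches, and Tfap2a and Tfap2b were not. The list had a median log2 ratio of -0.97 and summed levels of 62.8 and 267. Sox10 and Foxd3 were at the floor in the pit and the ectoderm. Crabp1 alone gave 35.4 and 193 of these sums, and a summed level adds values that are each relative to a gene's own lowest, so that 1 gene can carry it. Forebrain genes, with 12 at the level, were higher in 5 of 27 (18.5%, Lhx2, Emx2, Fezf2, Dmrta2 and Vim) and lower in 0. Their summed levels were 289 and 186. The pit was at the floor for 12 of the 27 and the ectoderm for 14, among them Rax, Wnt8b and Fabp7 in both. Fezf2 (5.01) and Dmrta2 (6.75) were at the floor in the ectoderm and reached 27.1 and 7.56 in the neural epithelium library labelled central. Of 10 sensory ganglion genes, with 4 at the level, 2 were higher (20%, Isl1 and Runx1), and Pou4f1 was at the floor in both. Of 12 oral, pituitary and pharyngeal genes 2 were higher, Isl1 and Pitx1 (13.7 and 3.24). Lens and otic genes (15), macrophage and platelet genes (7) and muscle and heart genes (9) gave 0 in either direction. Only 1, 0 and 1 of them were at the level, so almost none could be counted. The part of forebrain RNA in the neuronal genes was not tested.

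The 14 other libraries show where else the higher genes were expressed. The pit was the highest of all 16 libraries for 175 of the 582 higher genes (30.1%), against 13.4% of genes at the level, and the ectoderm was so for 145 of the 362 lower genes (40.1%, against 19.6%). Since both libraries entered the choice of these genes, these shares are a description. The next shares are over the 14 others alone, with the housekeeping and histone blocks kept in. E8.5 mesoderm was highest for 35.0% of higher genes (21.2% at the level), and the E9.5 mandibular arch for 36.3% of lower genes (16.1%). The 38 higher genes of the neurogenesis lists differed from this. Of the 37 that were above the floor in some other library, 18 (48.6%) were highest in the library labelled medial nasal prominence. A further 13 (35.1%) were highest in a neural epithelium library and 6 (16.2%) in mesenchyme, an arch or mesoderm. For genes at the level these shares were 14.9%, 28.6% and 56.5%, so the neural epithelium share was near that of genes at the level. In the library labelled medial nasal prominence Tubb3 reached 42.4 and Dcx 12.8, both above the pit. Nhlh1, Neurog1, Neurod1 and Hes6 did not exceed 2.36 in any of the 14.

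The genes farthest above every other library in the pit, in values as deposited, were Nhlh1 (12.8-fold over the next library), Thsd7b (7.57-fold), Atp8b4 (6.68-fold), Cdhr1 (6.58-fold), Fam107a (6.28-fold), Kif19a (6.21-fold), Apoc1 (5.83-fold), Uncx (5.58-fold), Itgb6 (5.09-fold) and Egfr (4.78-fold). All 15 other libraries, the ectoderm included, were at the floor for Atp8b4, Cdhr1, Kif19a, Uncx and Itgb6, so their folds are lower limits. Cdhr1 is a cadherin-related protein known from photoreceptors and Uncx a homeobox factor of the olfactory epithelium. Thsd7b was at 9.83 in the pit and 1.30 in the ectoderm. The neuronal and the epithelial members of this set were thus side by side in 1 library, and which cells of the pit carried them was not measured.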

How the data were processed

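Total RNA of 16 regions of CD1 embryos was sequenced, 1 library each. Per the labels' protocols, a ZR RNA MicroPrep kit (Zymo) served for purification, and reads were single-end, of 50 bases, from a HiSeq. The submitters' processing notes name Bowtie, TopHat, TopHat2, Cufflinks and the build mm9, with versions not given in the sources used here, nor the annotation. The deposited values are a ratio: each gene has a median of 1 over the 16 libraries, within 1.5e-07, and the unit before that division is not stated. The lowest ratio was 0.01, found 25 times in 6 genes, among them Lars2 in the ectoderm. Groups follow the sample labels.

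Levels, shifts and counts were computed with Python 3.11.15, pandas 2.3.3 and numpy 2.4.6 and checked on simulated data. Where a symbol stands on more than 1 row, lists used the row with the highest mean level. Genes, lists and members were chosen with earlier results of these data known. The genes named are the markers, the 15 largest folds in each direction without predicted genes, clone names, pseudogenes, gene segments, small RNAs and ribosomal protein genes, list members, genes next to the bound, and the 10 genes farthest above all other libraries. Genes of the let-7 search, sex-linked genes and symbol groups were chosen after their values were seen. The lists hold 892 symbols, 711 of them measured, and some of these are not reported by name here. Of 582 higher genes 402 symbols had a promoter window, and 482 of their 535 windows held the first bases of a GENCODE transcript.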

Additional observations from a re-analysis of the deposited data

How the results depend on the processing

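Counts depended on the level and fold thresholds. With a level of at least 2 there were 1367 higher and 696 lower genes, with a level of at least 10 there were 207 and 148, and without a level filter 1445 and 696. At 4-fold there were 213 and 104. Without predicted genes, pseudogenes, clone names and gene segments 241 lower genes were left, and 513 higher. Of the 106 listed genes counted, 60 were left at a level of at least 10. As deposited there were 524 higher and 454 lower genes, and Bmp4, Cldn3, Col11a1 and Spint2 were no longer counted while Arid3b was. With the shift taken within 10 classes of transcript length, an alternative chosen after seeing the data, there were 506 and 415, and Cldn3 and Crabp2 were no longer counted. Leaving out ribosomal, respiratory chain, proteasome and histone genes left 456 and 331, and leaving out genes low in 1 library alone left 580 and 359. Of the named genes 55 were no longer counted at a level of at least 10. Thresholds leave a ratio as it is, so direction was examined only as deposited and within the classes of transcript length, where no named gene changed it. No paired analysis was possible because each group has 1 library.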
